A study of Homo sapiens with 6 samples.

Results

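The 10 genes described here encode the enzymes that write and remove DNA methylation and the core of Polycomb repressive complex 2. They are DNMT1, DNMT3A, DNMT3B, UHRF1, TET1, TET2, TET3, EZH2, SUZ12 and EED. They were taken by symbol from 26485 gene symbols in the whole-number count tables and 28069 in the tables of estimated counts. All 10 were found in both tables, and all 10 passed the filter on low counts that left 12282 genes for testing. RNA was sequenced from K562, an established human myeloid leukaemia line, in 6 libraries of 3 groups. The control group carried the guide RNA labelled sgNeg2 and the genotype WT. The other groups carried sgRNA#1 or sgRNA#2 against ZNF410, a zinc finger transcription factor, and the genotype ZNF410 KO, here called sgRNA1 and sgRNA2. Each group had 2 libraries, numbered replicate 1 and replicate 2. The labels do not say whether replicates were separate cultures or whether a line was 1 clone, so each p-value measures only the spread between these libraries, which may be technical.

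DNA methylation in mammals is laid on cytosines that stand before a guanine, a dinucleotide called CpG. DNMT3A and DNMT3B place methyl groups on unmethylated DNA, and DNMT1 copies existing methylation to the new strand after replication with UHRF1, which binds hemimethylated CpG and guides DNMT1 to it. TET1, TET2 and TET3 oxidise 5-methylcytosine, the first step of its active removal. EZH2, SUZ12 and EED form the core of Polycomb repressive complex 2, which methylates lysine 27 of histone H3 and keeps developmental genes silent. In blood cells, TET2, DNMT3A and EZH2 are known as genes that are often mutated in myeloid disease.

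Each library held 8788816 to 9537470 counts assigned to genes. ZNF410 itself fell from 38.3 and 34.1 CPM (counts scaled to library size) in the control libraries to 19.2 and 24.5 with sgRNA1 and to 16.9 and 20.6 with sgRNA2, so its RNA was lower in all 4 knockout libraries. CHD4, which encodes a chromatin remodeller and is a known target of ZNF410, was at 591 and 669 CPM in the control libraries and at 283 to 325 in the knockout libraries. All 9 erythroid markers were detected in every library, and 3 to 4 of the 11 markers of other cell types were at 0 in each. Libraries differed far more by replicate number than by guide: the first principal component held 72.2% of the variance and separated the numbers. For this reason knockout was compared with wild type both without and with a term for the replicate number, called the replicate block.

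Levels were compared between genes as TPM, which is scaled for gene length as well as library size. The 10 genes spanned a wide range and kept nearly one order. From the highest mean TPM to the lowest they were DNMT1, UHRF1, EZH2, SUZ12, EED, DNMT3B, TET1, TET3, DNMT3A and TET2. Values are given below as control replicates 1 and 2, sgRNA1 replicates 1 and 2, and sgRNA2 replicates 1 and 2.

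The maintenance pair stood highest. DNMT1 (chr19:10133346-10194953, minus strand) was at 111, 131, 112, 119.9, 121 and 132 TPM, a mean of 121 ± 8.97 (SD, n = 6 libraries). It lay above every other gene of the set in every library. UHRF1 (chr19:4903080-4962154, plus strand) was at 76.5, 106, 77.4, 97.1, 86.7 and 104 TPM. The 3 replicate 2 libraries held its 3 highest values in each table. The de novo enzymes were lower and unequal. DNMT3B (chr20:32762385-32809356, plus strand) was at 30.7, 33.1, 34.2, 26.9, 33.7 and 28.5 TPM. DNMT3A (chr2:25227874-25342590, minus strand) was at 4.30, 6.29, 5.62, 5.93, 6.65 and 6.22 TPM, with control replicate 1 the lowest library. The ratio of DNMT3B to DNMT3A ranged from 4.53 to 7.14 over the 6 libraries, so DNMT3B was the more abundant de novo methyltransferase transcript in each.

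The erasers were low. TET1 (chr10:68560337-68694487, plus strand) was at 11.1, 9.90, 10.8, 7.08, 12.2 and 8.63 TPM. TET3 (chr2:73983631-74135498, plus strand) was at 7.17, 10.7, 7.62, 8.69, 7.99 and 10.9 TPM. TET1 was above TET3 in the 3 replicate 1 libraries and below it in the 3 replicate 2 libraries. TET2 (chr4:105145875-105279803, plus strand) was at 1.71, 2.65, 1.38, 2.03, 1.45 and 2.13 TPM, the lowest gene of the set in every library.

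The core of Polycomb repressive complex 2 was abundant. EZH2, its methyltransferase (chr7:148807383-148884291, minus strand), was at 79.2, 99.8, 70.2, 97.2, 75.5 and 100.4 TPM. SUZ12, the subunit on which the complex assembles (chr17:31937007-32001038, plus strand), was at 44.3, 53.7, 44.5, 50.4, 46.8 and 57.6 TPM. EED, which binds trimethylated lysine 27 (chr11:86244753-86287615, plus strand), was at 37.7, 46.3, 38.4, 49.1, 34.2 and 46.8 TPM. The RNAs did not follow equal amounts: EZH2 stood at 1.58 to 1.93 times SUZ12, and SUZ12 at 1.03 to 1.37 times EED.

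Neighbours in the order overlapped in 3 places. UHRF1 was above EZH2 in 4 of 6 libraries, SUZ12 was above EED in 6 of 6 although their ranges met, and TET1 was above TET3 in 3 of 6. The ranges of the other 6 pairs of neighbours did not overlap. The plot of TPM by library shows these steps.

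**Figure D1:**
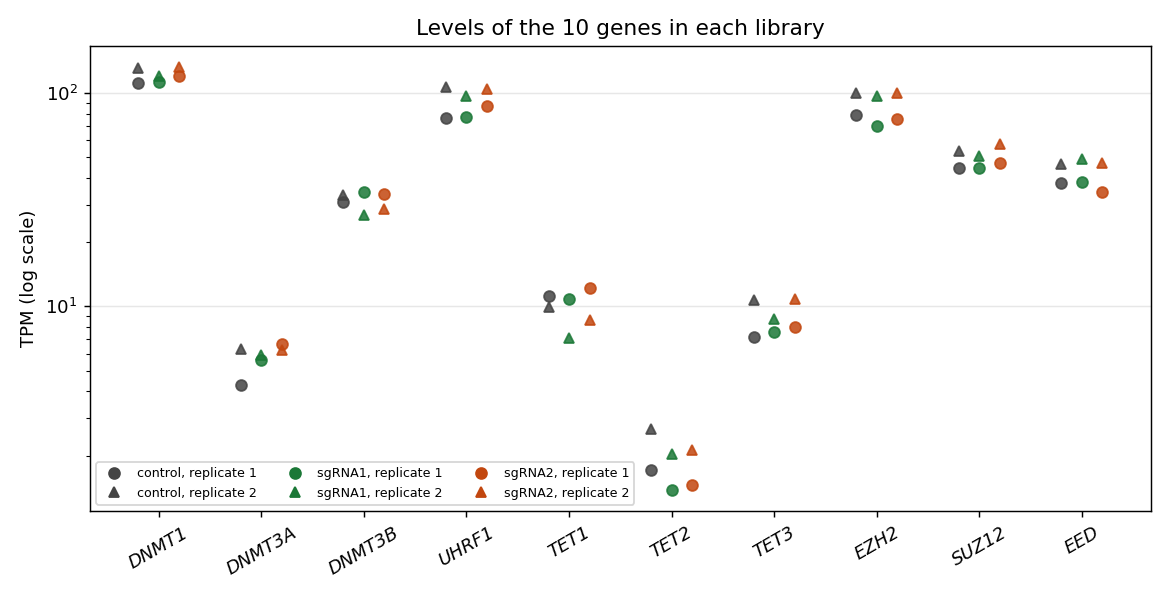
TPM on a log axis for each gene, 1 point per library, with colour for the group and circles for replicate 1 and triangles for replicate 2. DNMT1 lies at 111 to 132 TPM and TET2 at 1.38 to 2.65, and the triangles stand above the circles in every group for DNMT1, UHRF1, TET2, TET3, EZH2, SUZ12 and EED and below them in every group for TET1.

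CpG, the letter pair that the writers act on, is spread unevenly over the promoters of these genes. The 250 bases before the RefSeq start site in GRCh38.p14 are printed for TET1 and TET2, whose RNAs moved in opposite directions between replicate numbers, and for EZH2 and SUZ12, which moved together. Each is read 5′ to 3′ on the strand of the gene, with CpG in capitals. The windows are chr10:68560087-68560336 (TET1, plus), chr4:105146626-105146875 (TET2, plus), chr7:148884292-148884541 (EZH2, minus) and chr17:31936757-31937006 (SUZ12, plus).
TET1: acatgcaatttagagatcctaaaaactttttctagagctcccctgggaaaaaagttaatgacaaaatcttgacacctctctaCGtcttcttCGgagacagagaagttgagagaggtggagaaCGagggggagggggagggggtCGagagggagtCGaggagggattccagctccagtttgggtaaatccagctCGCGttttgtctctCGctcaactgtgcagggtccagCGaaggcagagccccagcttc
TET2: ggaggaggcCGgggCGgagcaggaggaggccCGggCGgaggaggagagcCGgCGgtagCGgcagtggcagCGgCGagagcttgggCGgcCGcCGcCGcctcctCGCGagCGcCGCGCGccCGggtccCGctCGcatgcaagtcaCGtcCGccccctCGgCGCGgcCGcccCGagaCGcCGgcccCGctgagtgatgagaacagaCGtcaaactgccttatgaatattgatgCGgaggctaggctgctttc
EZH2: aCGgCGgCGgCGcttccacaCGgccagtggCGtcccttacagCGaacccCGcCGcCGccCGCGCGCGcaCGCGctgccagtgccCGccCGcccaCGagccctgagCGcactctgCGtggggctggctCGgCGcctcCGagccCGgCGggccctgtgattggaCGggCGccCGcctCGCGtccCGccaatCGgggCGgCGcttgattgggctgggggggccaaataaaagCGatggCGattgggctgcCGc
SUZ12: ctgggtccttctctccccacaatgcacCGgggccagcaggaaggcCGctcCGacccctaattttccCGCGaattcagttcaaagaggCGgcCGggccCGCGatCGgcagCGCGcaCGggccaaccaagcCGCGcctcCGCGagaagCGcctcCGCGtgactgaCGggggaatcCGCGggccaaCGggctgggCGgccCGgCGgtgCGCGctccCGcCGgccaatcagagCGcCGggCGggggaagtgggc

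TET1 held 9 CpG in this window, TET2 34, EZH2 38 and SUZ12 34. The median over all 35116 start sites in the RefSeq table was 11, so TET1 lay close to that median and the other 3 lay well above it. The start used for TET1, 1 of 3 in the table, lay 319 bases from the 5′ end of its matched transcript. That distance was 90 bases for TET2, 13 for EZH2 and 11 for SUZ12, so the count of TET1 holds for this window only. All 10 genes had a start site in the table, but that of TET3, UHRF1 and DNMT3B lay more than 500 bases from the 5′ end of the longest transcript matched to the deposited identifiers, and they were not used. Over the other 7 genes the median was 21 CpG. The letters CCAAT, the box bound by NF-Y, were searched on both strands. EZH2 held 4, at 13, 47, 66 and 94 bases before the start, while SUZ12 held 1 at 31 and EED 1 at 16. CCAAT stood in 3 of the 7 windows, against 32.0% of all windows of that length. CCCATAA, letters from the motif known for ZNF410, stood in 0 of the 7 windows on either strand and in 1.60% of all windows. At that share, 0 of 7 says little. The window of CHD4, whose start lay 1131 bases from its matched 5′ end, held 0 as well. Such matches describe the letters only, and methylation of these windows was not analysed here.

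The lower ZNF410 RNA came with no called change in any of the 10 genes. Without the replicate block, edgeR's quasi-likelihood test called 0 of 10 at a Benjamini-Hochberg adjusted p under 0.05, where it called 0% of the 12282 genes tested. At an unadjusted p under 0.05 it took 284 genes and none of the 10. At the adjusted threshold it missed ZNF410 and CHD4 too, which were both called lower with the block. Its 0 of 10 therefore says little about the 10 genes. With the block, the test called 0 of 10, where it called 1.84% of all genes (226 genes). DESeq2's Wald test also called 0 of the 10 without and with the block (0.155% and 1.32% of all genes), as did limma on FPKM (0.00846% and 1.64%). Without the block the log2 fold changes of the 10 genes ran from -0.26 (TET2, SE 0.218) to 0.14 (DNMT3A, SE 0.150). The smallest unadjusted p among the 10 in the blocked edgeR fit was that of TET1, the only one of the 10 under 0.05, where 12.9% of all genes were.

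Each knockout library was next set against the control library of its own number. TET1 was lower by 0.03 and 0.53 (log2 CPM, replicates 1 and 2) with sgRNA1 and by 0.03 and 0.27 with sgRNA2. In CPM it stood at 85.5 and 71.9 in the controls, 83.7 and 49.8 with sgRNA1 and 84.1 and 59.4 with sgRNA2. All 4 knockout values lay below their own control, but those of replicate 1 lay close to it and above control replicate 2, so the groups overlapped. The blocked fit gave TET1 a log2 fold change of -0.20 (SE 0.0882, 95% interval -0.39 to -0.01, unadjusted p = 0.0408, edgeR adjusted p = 0.351).

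TET2 stood at 13.2 and 19.8 CPM in the controls, 13.1 and 14.9 with sgRNA1 and 11.4 and 15.4 with sgRNA2. All 4 knockout values were below their own control, by 0.01 to 0.41 on the log2 scale, but both replicate 2 values lay above control replicate 1. The blocked fit gave -0.25 (SE 0.138, 95% interval -0.54 to 0.04, edgeR adjusted p = 0.481). That value depended on the control library, at -0.39 without control replicate 1 and -0.10 without control replicate 2. On the estimated counts the blocked value was -0.30, with an unadjusted p of 0.0174 and an edgeR adjusted p of 0.193. TET1 and TET2 were thus the only genes of the 10 on one side of the paired control in 4 of 4 libraries, where 31.4% of all genes tested were on one side and 16.4% were lower. TET3 was lower in 1 of 4 and had a blocked log2 fold change of 0.05 (SE 0.0806, 95% interval -0.13 to 0.22).

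Of the writers of DNA methylation, DNMT1 had a blocked log2 fold change of 0.01 (SE 0.0529), with a 95% interval of -0.10 to 0.13. UHRF1 had 0.00 (SE 0.0544), with an interval of -0.11 to 0.12. DNMT3B had -0.01 (SE 0.0824, interval -0.18 to 0.17), but that mean hid a split: both knockout libraries of replicate 1 lay above their control, by 0.15 and 0.17, and both of replicate 2 lay below it, by 0.30 and 0.09. UHRF1 split the same way, higher by 0.05 and 0.06 in replicate 1 and lower by 0.08 and 0.04 in replicate 2. DNMT3A had 0.14 (SE 0.132), with a wide interval of -0.14 to 0.42 at a low level of 13.5 to 17.6 CPM.

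Of the Polycomb core, EZH2 had a blocked log2 fold change of -0.09 (SE 0.0618), with a 95% interval of -0.22 to 0.04. Its replicate 1 libraries were at 170 CPM in the control against 146 and 148 in the knockouts, while replicate 2 was at 195 against 191 and 201. SUZ12 had 0.06 (SE 0.0592, interval -0.06 to 0.19) and was higher in 3 of 4 libraries. EED had 0.03 (SE 0.0803, interval -0.14 to 0.20) and was higher in both replicate 2 libraries and lower in both of replicate 1. For 7 of the 10 genes, all but DNMT3A, TET1 and TET2, both ends of the blocked interval lay within 0.25 of 0 on the log2 scale. Without the block, whose pairing comes from the data, only DNMT1 of these 7 did so (-0.18 to 0.21). The unblocked intervals of the others were wider: SUZ12 -0.16 to 0.29, EED -0.31 to 0.38, TET3 -0.32 to 0.41, UHRF1 -0.34 to 0.34, DNMT3B -0.36 to 0.37 and EZH2 -0.46 to 0.30. None of the 10 had all 4 knockout libraries on one side of both controls, as 9.72% of all genes did. The plot of knockout minus control shows the 4 paired differences and the interval of each gene.

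**Figure D2:**
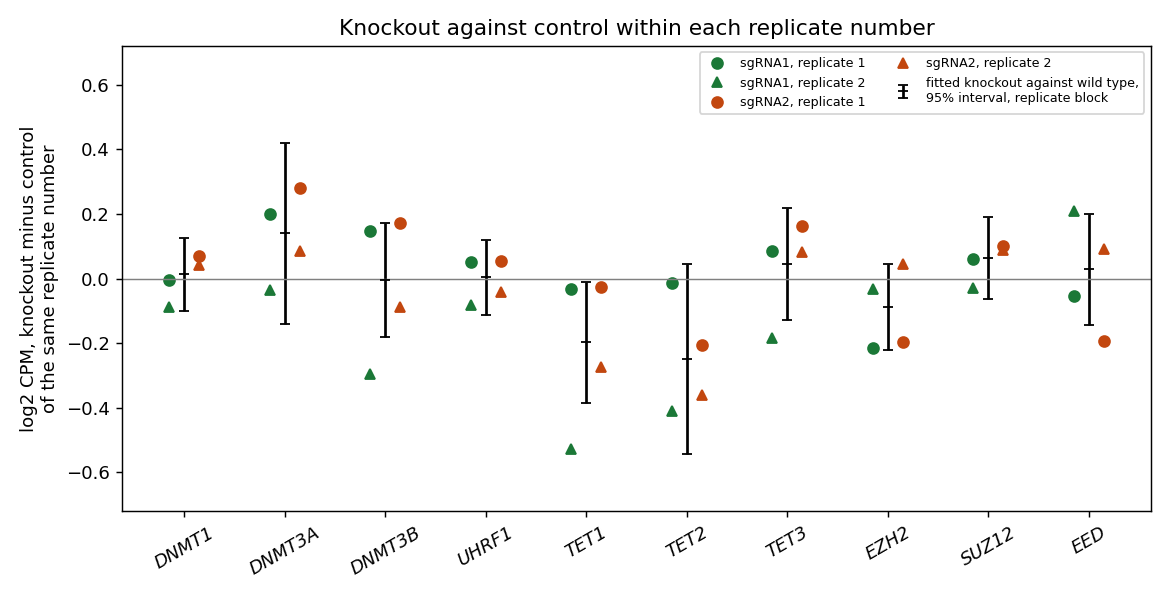
Knockout minus the control of the same replicate number in log2 CPM, with green for sgRNA1, orange for sgRNA2, circles for replicate 1 and triangles for replicate 2; black bars are the fitted knockout effect with the replicate block and its 95% interval. Every interval but that of TET1 spans 0, and that of TET1 ends at -0.01.

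Taken one guide at a time, sgRNA1 against control called 0 of 10 genes with the block, where it called 0.887% of all genes (109 genes), and sgRNA2 against control called 0 of 10, where it called 1.38% (170 genes). Without the block both called 0 of 10 and 0% of all genes by edgeR's quasi-likelihood test, with 120 genes for sgRNA1 and 141 for sgRNA2 at an unadjusted p under 0.05. ZNF410 and CHD4 were called lower with each guide only with the block, so the unblocked counts of 0 say little. TET1 had -0.26 (SE 0.102, edgeR adjusted p = 0.385) with sgRNA1 and -0.14 (SE 0.101, adjusted p = 0.635) with sgRNA2. These values depended on the control library: without control replicate 1 they were -0.46 (adjusted p = 0.00118) and -0.34 (adjusted p = 0.0392), and without control replicate 2 they were -0.08 and 0.04. TET2 had -0.22 with sgRNA1 and -0.28 with sgRNA2 (SE 0.164 and 0.165). Both guides were compared with the same 2 control libraries.

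The difference between guides was tested itself and called 0 of 10 genes with the block by edgeR, where it called 0.0896% of all genes (11 genes; 539 at an unadjusted p under 0.05). Without the block it called 0 of 10 and 0% of all genes, with 33 genes at an unadjusted p under 0.05. That 0 says little about the 10 genes. DNMT1 was lower than its control in both sgRNA1 libraries, by 0.01 and 0.09, and higher in both sgRNA2 libraries, by 0.07 and 0.04. Its guide difference was 0.10 (SE 0.0564, edgeR adjusted p = 0.9995). TET3 had a guide difference of 0.18 (SE 0.0838, adjusted p = 0.9995), and of 0.13 on the estimated counts.

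The replicate number moved most of these genes more than the guide did. With the group as a term, edgeR called 8 of 10 genes between replicate 2 and replicate 1, with 6 higher in replicate 2 and 2 lower. The same test called 45.0% of all genes tested (21.6% higher and 23.5% lower). In log2 CPM all 10 genes stepped in 1 direction in 3 of 3 groups, as 66.9% of all genes did; in TPM, DNMT3A and DNMT3B did not. The replicate libraries did not overlap for 8 of the 10, against 52.0% of all genes. The median size of the step was 0.27 on the log2 scale for the 10 genes and 0.27 for all genes, while the median size of the knockout difference was 0.09 for the 10 and 0.14 for all genes. In bulk RNA, a change in the share of cells that make a transcript and a change in its amount per cell cannot be told apart.

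TET1 stepped most in the whole-number counts with all libraries; TET2 stepped more on the estimated counts (0.51 against -0.50) and without sgRNA1 replicate 1 (0.51 against -0.37) or replicate 2 (0.51 against -0.38). In log2 CPM, TET1 was lower in replicate 2 than in replicate 1 by 0.25 between the controls, 0.75 between the sgRNA1 libraries and 0.50 between the sgRNA2 libraries. Every replicate 2 library lay below every replicate 1 library, with a fitted difference of -0.50 (SE 0.0830, edgeR adjusted p = 0.000242). The sister genes went the other way. TET2 was higher in replicate 2 by 0.58, 0.19 and 0.43 in the same order, with a fitted 0.40 (SE 0.135, adjusted p = 0.0253). TET3 was at 65.8, 69.8 and 73.7 CPM in replicate 1 and 86.6, 76.2 and 91.7 in replicate 2, with a fitted 0.28 (SE 0.0687, adjusted p = 0.00457).

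The makeup of the TET family differed between replicate numbers. The TPM ratio of TET1 to TET3 was 1.42 to 1.55 in replicate 1 and 0.793 to 0.922 in replicate 2. The ratio of TET1 to TET2 was 6.52 to 8.43 in replicate 1 and 3.49 to 4.05 in replicate 2. In both ratios the replicates did not overlap, and the 3 groups lay close to each other within a replicate. The plot of TPM ratios shows both.

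**Figure D3:**
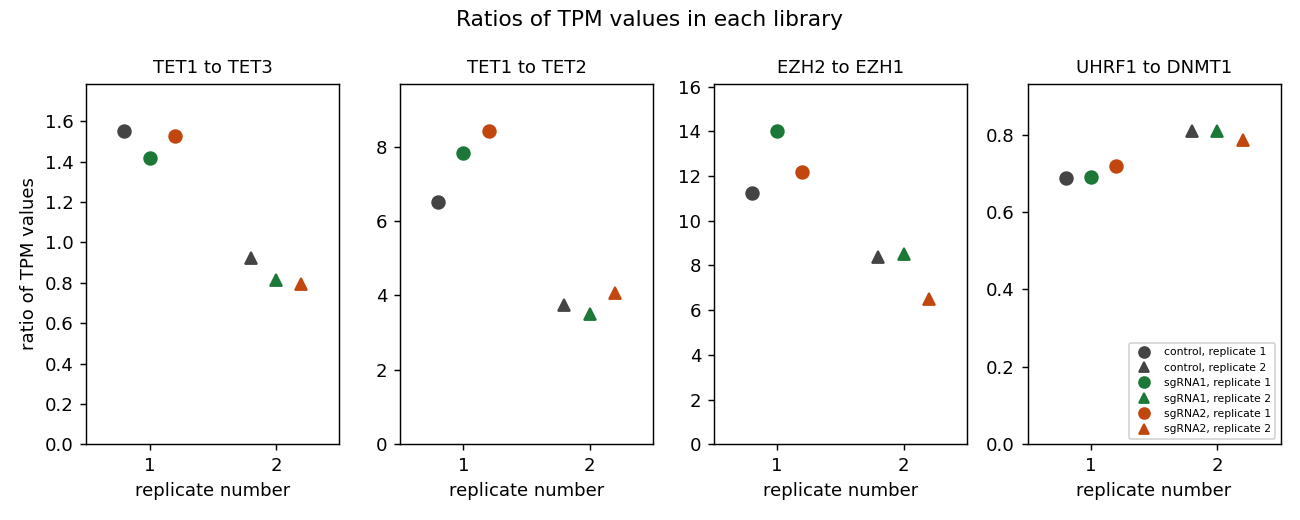
Ratios of TPM values in each library, by replicate number, with colour for the group and axes that start at 0. In all 4 panels the replicate 1 and replicate 2 libraries separate, with TET1 to TET3, TET1 to TET2 and EZH2 to EZH1 lower in replicate 2 and UHRF1 to DNMT1 higher.

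Among the writers, UHRF1 rose and DNMT3B fell from replicate 1 to replicate 2. UHRF1 was at 189.6, 196 and 197 CPM in replicate 1 and 248, 234 and 241 in replicate 2, with a fitted difference of 0.31 (SE 0.0520, edgeR adjusted p = 0.000267). DNMT3B was at 96.8, 107 and 109 CPM in replicate 1 and 94.6, 77.0 and 89.1 in replicate 2, with a fitted -0.27 (SE 0.0757, adjusted p = 0.00974). Its control pair differed by 0.03 only, and the call was lost without either sgRNA1 library, at -0.16 both times (adjusted p = 0.198 without replicate 1 and 0.161 without replicate 2). DNMT1 had 0.08 (95% interval -0.02 to 0.18, adjusted p = 0.181) and DNMT3A 0.14 (interval -0.13 to 0.41, adjusted p = 0.390). UHRF1 stood at 0.689 to 0.719 times DNMT1 in replicate 1 and 0.787 to 0.810 times in replicate 2 on the TPM scale.

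All 3 genes of the Polycomb core were higher in replicate 2. EZH2 rose by 0.34 (SE 0.0584, edgeR adjusted p = 0.000302), with steps of 0.20 between the controls, 0.39 between the sgRNA1 libraries and 0.44 between the sgRNA2 libraries. EED rose by 0.26 (SE 0.0737, adjusted p = 0.0111), from 63.4, 61.0 and 55.4 CPM to 66.8, 77.3 and 71.1. Its call was lost without any 1 of the 4 knockout libraries (0.21 to 0.22, adjusted p = 0.0649 to 0.106). SUZ12 rose by 0.14 (SE 0.0538, adjusted p = 0.0419), the smallest called step, and its call was lost without any 1 of the 6 libraries (adjusted p = 0.0831 to 0.136). TET2's call was lost without control replicate 1, control replicate 2 or sgRNA2 replicate 1 (adjusted p = 0.124, 0.132 and 0.0504). DESeq2's Wald test also did not call SUZ12 (adjusted p = 0.162), EED (0.0817), TET2 (0.190) or DNMT3B (0.0506), and limma on log2(FPKM + 1) did not call DNMT3B (0.0511). Without the FPKM filter limma also lost TET2 (0.0502) and TET3 (0.0810), and with a pseudocount of 0.1 it lost TET2 (0.0529). SUZ12 was lost with upper-quartile scaling (0.0510) and without the group term (0.0672) in edgeR. TET1, TET3, UHRF1 and EZH2 were called in all 6 fits that left out 1 library. The plot of replicate steps shows all 3 groups for each gene.

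**Figure D4:**
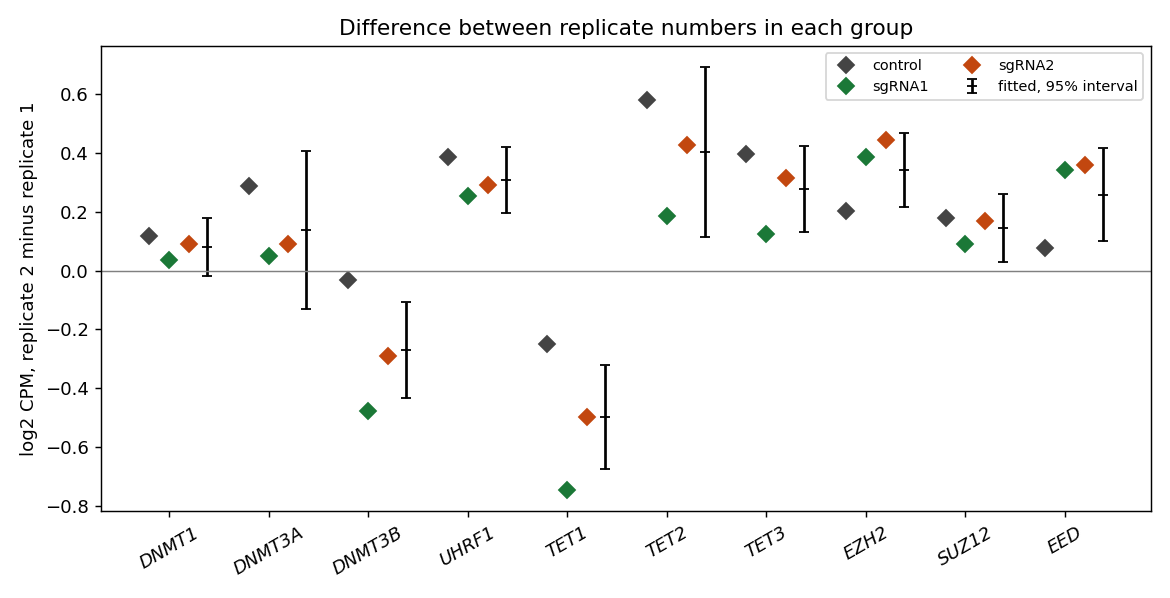
Replicate 2 minus replicate 1 in log2 CPM for each group (diamonds), with the fitted difference and its 95% interval in black. TET1 and DNMT3B lie below 0 in every group and the other 8 genes above it; the intervals of DNMT1 and DNMT3A span 0.

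Some marker lists also differed between the replicate numbers in the same libraries. The summed CPM of the 9 erythroid markers was 2744 to 2908 in replicate 1 and 4420 to 5349 in replicate 2, and all 9 were called, 7 higher and 2 lower, where 21.6% of all genes were higher and 23.5% lower. The summed CPM of the 11 markers of other cell types was 539 to 866 in replicate 1 and 373 to 486 in replicate 2. Most of that sum was VIM, the gene of the intermediate filament vimentin, and without it the sums were 154 to 196 and 131 to 149. The summed CPM of 16 proliferation genes overlapped, at 6003 to 6189 in replicate 1 and 6024 to 6342 in replicate 2, and 8 of the 16 were called, 5 higher and 3 lower, which is near the 45.0% of all genes. MKI67, a marker of cycling cells, rose by 0.61, while TOP2A, which encodes a topoisomerase of dividing cells, fell by 0.30. The part of these measures in the steps of the 10 genes was not tested.

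Whether knockout changed the step itself was asked after the steps had been seen. The difference between the knockout step and the control step called 0 of 10 genes by edgeR, where it called 0.244% of all genes (30 genes; 1026 at an unadjusted p under 0.05). Each control step is the difference of 1 library from 1 other, so a gene's own spread in this test comes only from the differences between the guides. The test called 0 of 10 on the estimated counts (0.11% of all genes) and 0 with limma on FPKM (0.0762%). DNMT3B had -0.35 (SE 0.134, unadjusted p = 0.0184, edgeR adjusted p = 0.451), since its control hardly stepped. TET1 had -0.37 (SE 0.143, unadjusted p = 0.0196, adjusted p = 0.461). The other 8 genes had unadjusted p-values above 0.05.

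The genes whose pattern over the 6 libraries was most like that of TET1, the gene of the 10 that varied most, were KLHL42, CD99L2, METTL15, ZNF429 and APOBEC3G. Likeness was the root mean square difference of centred log2 CPM over 6 libraries, which was 0.06 to 0.08 for these 5 among 9956 candidates. In all 5, as in TET1, every replicate 2 library lay below every replicate 1 library, as in 26.2% of all genes tested. That follows from how the 5 were picked and is not a separate result. KLHL42 was at 22.0, 23.2 and 22.4 CPM in replicate 1 and 18.9, 14.4 and 16.0 in replicate 2. The 6 libraries are the same for all of these genes.

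The partners of the 10 genes were described from lists of related genes. Among 25 tested subunits of Polycomb repressive complex 1, which binds the mark left by EZH2, the blocked fit called 1 lower and 1 higher in knockout, where it called 1.84% of all genes. CBX6, one of the proteins that read trimethylated lysine 27, was at 59.1 and 94.1 CPM in the controls, 43.6 and 54.2 with sgRNA1 and 49.9 and 57.8 with sgRNA2. All knockout values were under the lower control, and the blocked log2 fold change was -0.55 (SE 0.0912, edgeR adjusted p = 0.00470). SCML2, a Polycomb protein with MBT domains, was at 49.6 and 59.6 CPM in the controls, 66.1 and 79.7 with sgRNA1 and 70.2 and 78.9 with sgRNA2. All knockout values were over the higher control, and the blocked value was 0.44 (SE 0.0686, adjusted p = 0.00277).

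Both genes were called with each guide on its own in the blocked fit. CBX6 had -0.62 with sgRNA1 (edgeR adjusted p = 0.00927) and -0.48 with sgRNA2 (adjusted p = 0.0354), and SCML2 had 0.43 (adjusted p = 0.0207) and 0.46 (adjusted p = 0.00881). Neither was called without the block (edgeR adjusted p = 0.9999 for both). SCML2 was called in all 6 blocked fits that left out 1 library, while CBX6 was at -0.33 (adjusted p = 0.154) without control replicate 2, its highest library, and at -0.49 (adjusted p = 0.0706) by limma on FPKM with the block. The medians of the list were -0.03 for its 25 genes and 0.00 for all genes tested. RING1, a catalytic subunit of the same complex, was at 0.108 to 0.768 CPM in the whole-number tables but at 40.9 to 52.8 TPM in the other table, and was too low for the test on whole-number counts. On the estimated counts it had a blocked 0.14 (SE 0.0644, edgeR adjusted p = 0.331). It is named after its values were seen. Between replicates, 13 of the 25 subunits were called, 9 higher and 4 lower, where 45.0% of all genes tested were. The scaffold subunit PHC3 rose by 0.56 (SE 0.0873, edgeR adjusted p = 0.000137). BMI1 rose by 1.07 and PCGF2 fell by 1.72, but their whole-number counts were only 0.0138 and 0.178 of the estimated counts, where the steps were 0.55 and -0.45, so their size is uncertain.

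Of 10 other tested subunits of Polycomb repressive complex 2, the blocked fit called PHF1 alone, at -0.85 (SE 0.195, edgeR adjusted p = 0.0364), where it called 1.84% of all genes. PHF1, which binds lysine 36 methylation, is uncertain: on the estimated counts it had 0.20 (adjusted p = 0.343), and its whole-number counts were 0.149 of its estimated counts, where the median gene had 0.554. Its call was lost in all 6 blocked fits that left out 1 library (adjusted p = 0.0606 to 0.205) and with blocked DESeq2 (0.183). EZH1, the sister enzyme of EZH2, had 0.06 in knockout (adjusted p = 0.908) but rose by 0.97 from replicate 1 to replicate 2 (SE 0.123, adjusted p = 2.30e-05). The TPM ratio of EZH2 to EZH1 was 11.3 to 14.0 in replicate 1 and 6.52 to 8.50 in replicate 2. In all, 6 of the 10 subunits were called between replicates, 4 higher and 2 lower, where 45.0% of all genes were.

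Among 12 tested partners of demethylation, IDH1 alone was called in knockout with the block, where 1.84% of all genes were. IDH1 makes 2-oxoglutarate, the co-substrate of the TET enzymes. It was at 172 and 87.5 CPM in the controls, 197 and 127 with sgRNA1 and 194 and 120.4 with sgRNA2, higher than the control of its number in 4 of 4 libraries although the groups overlapped. The blocked log2 fold change was 0.34 (SE 0.0706, edgeR adjusted p = 0.0219). Taken alone, neither guide gave a call on the whole-number counts (adjusted p = 0.0539 for sgRNA1 and 0.0796 for sgRNA2), while both did on the estimated counts (0.0327 and 0.0421). The call was lost without control replicate 2 (0.20, adjusted p = 0.268) and without sgRNA1 replicate 2 (0.30, adjusted p = 0.0754). Between replicates, 8 of these 12 genes were called, 2 higher and 6 lower, where 21.6% of all genes were higher and 23.5% lower. IDH1 fell by 0.76, IDH2, its mitochondrial counterpart, fell by 1.28, and the stress response genes GADD45A and GADD45B fell by 0.88 and 1.42. Over 9 other settings the value of GADD45B ran from -1.48 to -0.52, so its size is uncertain. GADD45B was low, and its call was lost without either sgRNA1 library (-0.90 and -0.91, adjusted p = 0.375 and 0.346) and with DESeq2's Wald test (adjusted p = 0.226).

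None of the 9 tested cofactors of DNA methylation, the 8 methyl-CpG readers and the 5 tested erasers of Polycomb marks was called in knockout with the block, where 1.84% of all genes were. Between replicates, 7 of the 9 cofactors were called, 5 higher and 2 lower, where 45.0% of all genes were called. MAT2A, which makes the methyl donor S-adenosylmethionine, rose by 1.08 (SE 0.0518, edgeR adjusted p = 1.99e-09), and the remodeller HELLS rose by 0.73 and NSD1, a lysine 36 methyltransferase, by 0.62. Of the readers, 2 of 8 were called, both higher, and MBD1 rose by 0.27, a call lost with DESeq2's Wald test (adjusted p = 0.0739). Of the erasers, KDM6B, a lysine 27 demethylase, fell by 0.58, while ASXL1 and ASXL2, partners of the H2A deubiquitinase BAP1, rose by 0.33 and 0.28. By limma on log2(FPKM + 1) KDM6B was at -0.30 and ASXL2 at 0.17 (adjusted p = 0.0244 and 0.112). Over the 10 other settings KDM6B was called in 9, ASXL2 in 7 and ASXL1 in all 10.

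HOX genes, textbook targets of Polycomb silencing, were mostly too low to test: 11 of 39 passed the filter. None of the 11 was called in knockout with the block, where 1.84% of all genes were. Between replicates 5 of the 11 were called, 1 higher and 4 lower, which is near the 45.0% of all genes. HOXB9, the most abundant at a mean of 131 TPM, had -0.02 in knockout (edgeR adjusted p = 0.924) and fell by 0.56 from replicate 1 to replicate 2. Of 12 germline genes, which DNA methylation keeps silent in somatic cells, 2 passed the filter and neither was called in either comparison. SOHLH2, the most abundant of them, was at 19.2 to 27.6 TPM but at only 1.85 to 3.82 CPM in the whole-number tables, so its counts are uncertain. In the same blocked fit 3 of 9 erythroid markers were called higher in knockout. Of the 6 tested markers of other cell types, 1 was called higher and 2 lower. Of all genes, 1.19% were called higher and 0.651% lower. The part of these in the knockout values was not tested. The plot of the lists sets these genes beside the 10.

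**Figure D5:**
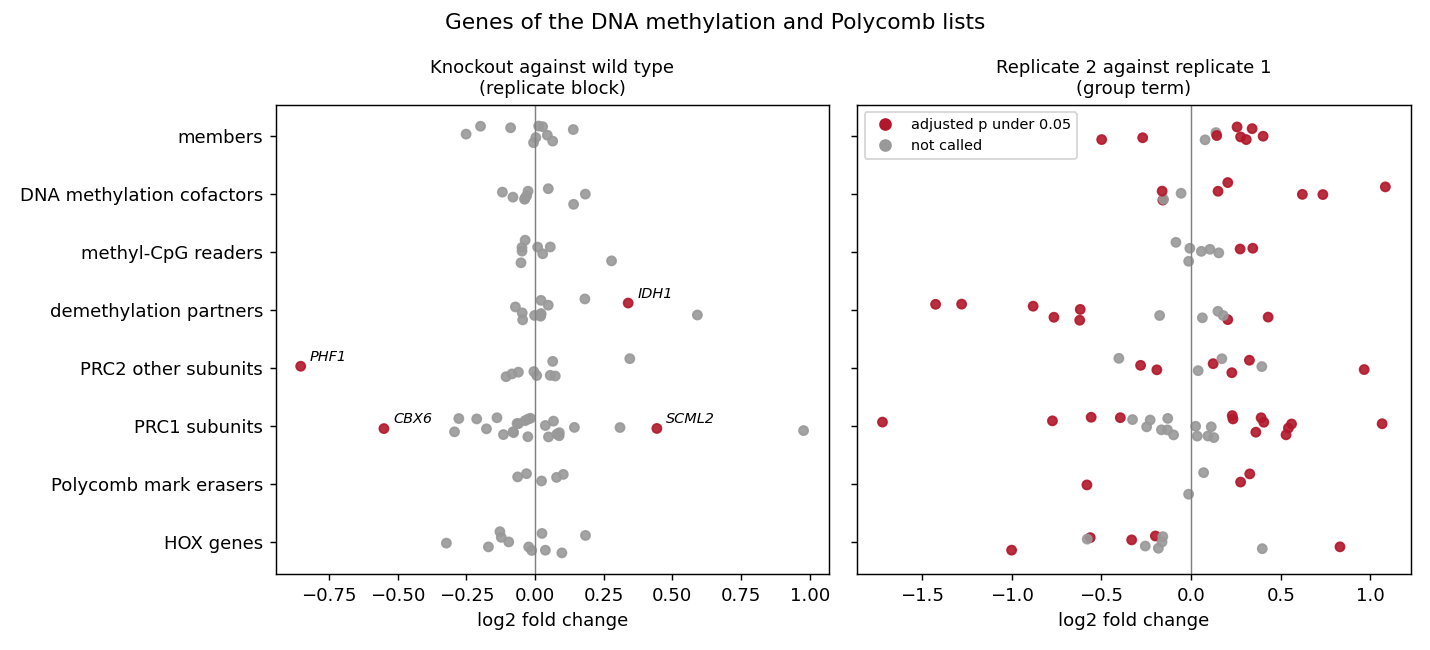
Log2 fold change of every tested gene of 8 lists, for knockout against wild type with the replicate block (left) and replicate 2 against replicate 1 (right), 1 point per gene, spread vertically within a list to part them, with different horizontal scales. The top line of points is the 10 genes described here. Red points have an edgeR adjusted p under 0.05: these are CBX6, SCML2, IDH1 and PHF1 on the left, and on the right 8 of those 10 genes and some genes of every other list.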

How the data were processed

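Total RNA from 6 K562 libraries was sequenced. Per the submitters' processing notes, the tools were Trim Galore, HISAT2 2.2.1, SAMtools 1.9, HTSeq 0.6.1, RSEM 1.3.2 and DESeq2 1.36.0, with the build hg38. The authors deposited whole-number counts per gene symbol. A second table holds, per the file headers, the authors' estimated counts, TPM and FPKM per gene, the last pair scaled by the authors for length and library size. TPM was used to describe levels. Rows that name no gene, 5 in each count table with 61.6% to 62.6% of its total, were left out. The strand setting is not given in the sources used here. DNMT1 shares 83 exon bases with S1PR2 and EED 66 with MIR6755, so their counts are uncertain to that extent.

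The test was edgeR 4.0.16 under R 4.3.3 (quasi-likelihood F-test, TMM, filterByExpr by group, Benjamini-Hochberg over 12282 genes, threshold 0.05), and a standard error is the log2 fold change over the square root of F. Log2 CPM used a prior count of 2. Alternatives used DESeq2 1.42.0, limma 3.58.1 on log2(FPKM + 1) with a mean FPKM of at least 0.5, rounded estimated counts, other scalings and filters, and fits without each library. Libraries of 1 number were taken to pair: their deviations from group means correlated at 0.811, 0.757 and 0.824 over 9966 genes. No label explains the numbers, so the pairing comes from the data. Replicates of a group differed beyond sampling noise (chi-square per degree of freedom 27.6 to 32.9). The fitting function was run on simulated counts in which all groups shared the step between replicate numbers, with a spread near that of the blocked fit. That run took the pairing as given and could not test it.

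The 10 genes and the lists were chosen with earlier results of these data known. Named are the 10 genes, ZNF410 and CHD4, per list at most 4 genes called with the block or between replicates (largest change first), and the 5 genes nearest to the member that varied most. Some genes that this rule names are not reported here. Promoter windows and gene positions are from RefSeq tables of GRCh38.p14.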

Additional observations from a re-analysis of the deposited data

How the results depend on the processing

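No gene of the 10 was called between knockout and wild type under any of 14 other settings or any of 12 fits that left out 1 library, so changes of sign concern values not told from 0. DNMT3B was at -0.0015 with no filter beyond 1 count, at -0.043 with limma on log2(FPKM + 1) with or without the FPKM filter, at -0.046 with a pseudocount of 0.1 and at -0.046 on estimated counts. With the replicate block DNMT3B was at -0.0051, and at -0.058 on estimated counts, -0.010 with DESeq2, -0.043 with limma and -0.0057 with upper-quartile scaling. UHRF1 was at 0.0014 when genes needed a mean count of 50, at 0.022 with limma in all 3 versions and at 0.011 on estimated counts. With the replicate block UHRF1 was at 0.0032, and at 0.016 on estimated counts, 0.022 with limma and 0.0026 with upper-quartile scaling. TET3 was at -6.02e-05 with limma on log2(FPKM + 1) with or without the filter or the replicate block, at -0.016 on estimated counts and at -0.0087 on these with the block. PHF1 was at 0.19 with limma on log2(FPKM + 1) with or without the filter or the block, at 0.204 with a pseudocount of 0.1, at 0.199 on estimated counts and at 0.199 on these with the block. The block changed no call among the 10 genes. Settings without it called at most 0.155% of all genes, so their counts of 0 say little.

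Over the fits that left out 1 library, the knockout value ran from -0.052 to 0.072 for DNMT1, -0.0070 to 0.29 for DNMT3A, -0.19 to 0.17 for DNMT3B, -0.19 to 0.20 for UHRF1, -0.53 to 0.061 for TET2, -0.15 to 0.25 for TET3, -0.20 to 0.024 for EZH2, -0.031 to 0.15 for SUZ12, -0.11 to 0.15 for EED and -0.098 to 0.87 for IDH1. TET1 kept its sign in all of them, at -0.39 to -0.02. Each guide called 0 to 1 of the 10, the 1 being TET1 without control replicate 1 and with the block, where 2.45% (sgRNA1) and 3.05% (sgRNA2) of all genes were called. Between replicates the count of 8 was 4 with DESeq2's Wald test (28.0% of all genes), 5 with limma and no FPKM filter (26.8%), and 5 to 6 without 1 library (31.5% to 43.3%). It was 7 with upper-quartile scaling (45.4%), limma on log2(FPKM + 1) (50%) or no group term (40.9%), and 6 with limma and a pseudocount of 0.1 (49.8%). All 10 kept their direction in all of these fits. UHRF1, TET1 and EZH2 were called under all 10 settings and all 6 left-out fits. The test of the step between genotypes, its estimated-count and its limma version were added after seeing the data. With 2 libraries a group, the leave-out fits leave an arm of 1 library that is assumed to vary like the others. The width of the intervals limits what could be seen for DNMT3A and TET2, and without the block for most of the 10 genes. The cause of these shifts was not tested.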
